A study of Mus musculus with 6 samples.

Results

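The genes described here are 10 members of the Notch pathway, 4 receptors (*Notch1*, *Notch2*, *Notch3* and *Notch4*), 3 ligands (*Jag1*, *Jag2* and *Dll1*) and 3 target genes (*Hes1*, *Hey1* and *Heyl*), out of 20856 genes with values in the expression table. They were picked by symbol, for their place in the pathway. RNA-Seq had been run on 6 cell lines grown from mouse liver tumors, 3 labelled Myc;sgp53/Cas9 (*Myc*; sg*Trp53*) and 3 labelled Myc;sgMll3/Cas9 (*Myc*; sg*Kmt2c*, where *Kmt2c* is the gene of the histone methyltransferase MLL3). The tumors arose in C57BL/6 mice after hydrodynamic injection, which carries plasmids into hepatocytes, of a *Myc* transposon and a px330 plasmid that expresses Cas9 and the guide RNA for a short time. All 6 lines therefore carry the *Myc* transposon and are transformed, none was treated further, and neither genotype has both *Trp53* and *Kmt2c* intact, so a difference between the genotypes cannot be assigned to the loss of either gene. The study states that the lines of a genotype came from different mice. The labels name sg*Kmt2c* replicates 2 and 3 as 2A and 2T1, a shared number whose meaning they do not give, so the fit was also run with both as 1 sample. With them merged 0 of all genes passed an adjusted p-value under 0.05 (limma, 1053 at an unadjusted p-value under 0.05), as against 15 without merging. The lines were grown on collagen-coated plates in serum-containing DMEM until fibroblasts had been lost on passaging, as judged by eye.

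Notch receptors are membrane proteins that are activated by ligands of the Jagged and Delta families on an adjoining cell. Ligand binding lets ADAM proteases and then the γ-secretase complex cut the receptor, and the freed intracellular domain enters the nucleus, where it joins the DNA-binding protein RBPJ and Mastermind-like coactivators to switch on genes such as those of the HES and HEY repressors. In the developing liver, JAG1 acting on NOTCH2 directs bile duct formation, and Notch activity in adult hepatocytes can push them towards a biliary fate.

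The libraries held 3680068 to 6878625 reads on genes, so that a single read on a transcript of 2 kb was worth 0.0726 to 0.136 RPKM (reads scaled to transcript length and to the reads of the library). Values of the lines are given in the order of replicates 1 to 3. *Trp53*, the gene targeted in the sg*Trp53* lines, was at 17.2, 17.6 and 19.4 RPKM with sg*Trp53* and 92.2, 124 and 121 RPKM with sg*Kmt2c*, and it differed past the threshold (adjusted p = 0.0140 from limma). *Kmt2c* RNA was at 24.2, 18.4 and 19.2 RPKM against 19.7, 25.0 and 9.51 RPKM and is no check of the labels, since small indels need not lower the RNA. One line stood apart. In sg*Kmt2c* replicate 1 the 9 hepatocyte markers summed to 5626 RPKM, against 2.33 to 304 RPKM in the other lines, and the 8 biliary markers to 3523 RPKM against 111 to 1121 RPKM. The same line had 6 of 8 mural cell markers and 5 of 7 fibroblast markers at 0, with sums of 0.433 and 0.282 RPKM against 31.8 to 266 and 14.0 to 953 RPKM in the others. It was the lowest of the 6 lines in 35.9% of all genes tested and the highest in 23.6%, where the other lines were lowest in 8.37% to 17.8%. Its part in the results was not tested, and the log2 fold changes of the tested members are also given without it. The mural sums separated the genotypes as well, at 40.8, 83.5 and 266 RPKM with sg*Trp53* and 0.433, 35.1 and 31.8 RPKM with sg*Kmt2c*. All 5 tested mural markers and all 3 tested fibroblast markers had negative log2 fold changes, none past the threshold, the nearest being *Cnn1* at 26.2 ± 14.7 and 0.340 ± 0.407 RPKM (SD, n = 3 each, adjusted p = 0.0611 from limma). The lines overlapped in *Pdgfrb*, *Cspg4* and *Acta2* of the tested mural markers and not in *Cnn1* and *Tagln*. Among the untested mural markers *Rgs5* had a higher mean with sg*Kmt2c* (0.291 against 0.0794 RPKM), and *Myh11* and *Des* had lower ones. The fibroblast sums overlapped. Endothelial sums reached at most 1.27 RPKM, with *Emcn* and *Erg* at 0 in all 6 lines, and immune sums at most 8.07 RPKM, with *Cd3e* and *Cd79a* at 0 in all 6. *Apob* and *Hnf4a* made up most of the high hepatocyte sum, and the table divides both by lengths far under those of their longest transcripts, so the sum is comparable between lines and not between lists.

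**Figure D1:**
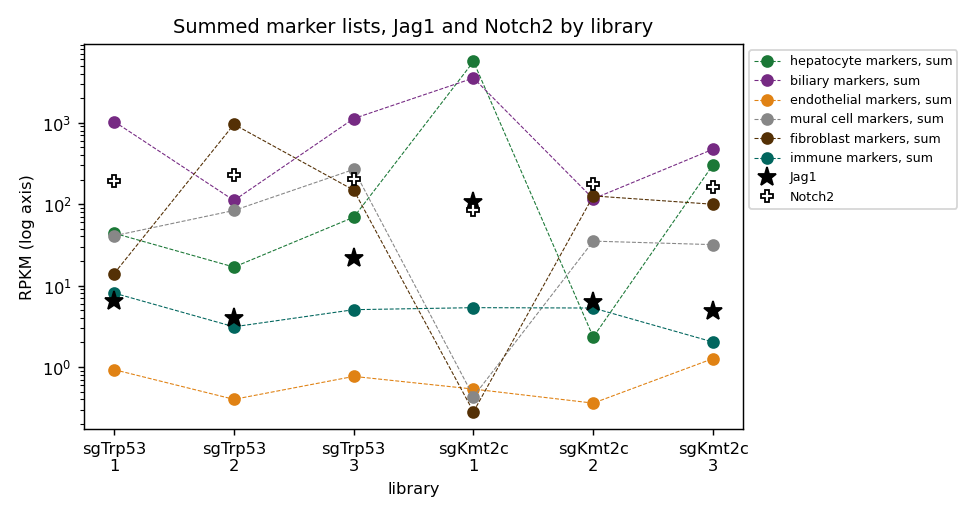
Summed RPKM of 6 marker lists (circles, joined by dashed lines only to guide the eye) and RPKM of *Jag1* (stars) and *Notch2* (open crosses) in each library, on a log axis, 1 value per library and no error bars. sg*Kmt2c* replicate 1 had the highest hepatocyte sum (5626), biliary sum (3523) and *Jag1* level (105.5), and the lowest mural sum, fibroblast sum and *Notch2* level (84.2).

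Between the genotypes, no member passed the test. Of the 10 members, 6 had 1 RPKM or more in 3 or more libraries and were tested, and *Notch3*, *Notch4*, *Dll1* and *Heyl* did not. *Notch1*, *Jag1*, *Jag2*, *Hes1* and *Hey1* had positive log2 fold changes (sg*Kmt2c* over sg*Trp53*) and *Notch2* had a negative one. The median was 0.60 over the 6 beside -0.09 over all 11617 genes tested, of which 4878 were positive and 6739 negative. At an adjusted p-value under 0.05 (limma on log2(RPKM + 1), Benjamini-Hochberg over all genes tested) 0 of 6 members were called, where 0.129% of all genes were, 6 higher and 9 lower in the sg*Kmt2c* lines. Those 15 calls themselves fell to 0 in 5 of the 6 fits that left out a line, and to 8 without sg*Kmt2c* replicate 1. At an unadjusted p-value under 0.05 there was 1 member, *Notch1*, beside 8.58% of all genes, and limma voom on the recovered reads called 0 members too, with 1 at an unadjusted p-value under 0.05. The genotypes were fully separated in 2 of the 6 members, *Notch1* and *Notch2*, or 33.3%, beside 16.2% of all genes tested. In a set of 6 genes that gap amounts to about 1 gene. As the RNA is from bulk cultures, fewer expressing cells and less RNA per cell cannot be told apart in any of these values.

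**Figure D2:**
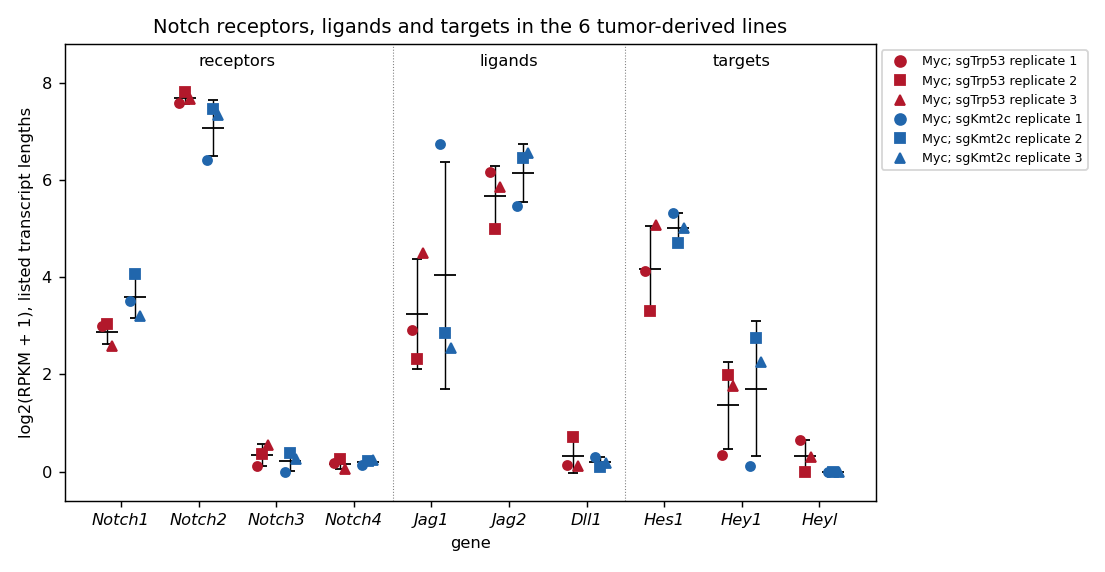
RPKM of the 10 members on the scale log2(RPKM + 1), with the listed transcript lengths, in each of the 6 lines (sg*Trp53* red, sg*Kmt2c* blue, a symbol per replicate). Bars give the mean and SD of the 3 lines of a genotype. The genotypes are apart in *Notch1* and *Notch2*, *Jag1* is spread widest, with sg*Kmt2c* replicate 1 far above the other lines, and *Notch3*, *Notch4*, *Dll1* and *Heyl* lie near 0.

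The table divides the reads of each gene by a single listed transcript length, and this decides how the members rank. For *Notch2* the listed length was 1896 bases, while its longest protein-coding transcript in GENCODE M1 has 10506, so that its listed RPKM is 5.54 times as high as one on the longest transcript. For *Hey1* the lengths were 2423 and 2203 bases, and for the other 8 members they were equal. Ratios of RPKM between lines do not depend on the length, and the fitted log2 fold changes do only through the added 1 (for *Notch2* -0.62 on the listed and -0.60 on the GENCODE M1 length). Levels of the members are compared with each other only on the GENCODE M1 lengths. On that scale *Jag2* had the highest mean over the 6 lines, 63.5 ± 24.2 RPKM (SD, n = 6), followed by *Notch2* with 31.2 ± 8.78 RPKM. *Hes1* came next with 25.6 ± 11.2 RPKM, then *Jag1* with 24.8 ± 40.1 RPKM, *Notch1* with 8.97 ± 3.82 RPKM and *Hey1* with 2.78 ± 2.35 RPKM (SD, n = 6 each). *Jag2* was above *Notch2* in 5 of 6 lines, *Notch2* above *Hes1* in 4, *Hes1* above *Jag1* in 5, and *Notch1* above *Hey1* and *Hey1* above *Notch3* in 6 of 6. The mean of *Jag1* was set by 1 line, and *Jag1* exceeded *Notch1* in only 2 of 6 lines. The remaining members averaged 0.134 to 0.223 RPKM and could not be ranked, since each was above the next in only 3 or 4 of 6 lines.

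Among the receptors, *Notch1* and *Notch2* differed between the genotypes in opposite directions, and neither passed the test. *Notch1* (chromosome 2, 26457903 to 26516663, GRCm38) encodes a receptor required for T cell and blood vessel development. It was at 6.98, 7.27 and 5.002 RPKM in sg*Trp53* replicates 1 to 3, and 10.4, 15.9 and 8.26 RPKM in sg*Kmt2c* replicates 1 to 3. Every sg*Kmt2c* line was above every sg*Trp53* line, from 327 to 555 reads per library. The separation was narrow, since the 95% Poisson intervals for counting error of the nearest lines overlapped, 7.40 to 9.19 RPKM in sg*Kmt2c* replicate 3 and 6.55 to 8.05 RPKM in sg*Trp53* replicate 2. The means were 6.42 ± 1.23 and 11.5 ± 3.92 RPKM (SD, n = 3 each), and the log2 fold change was 0.72 (95% confidence interval 0.01 to 1.44, standard error 0.300, unadjusted p = 0.0487, adjusted p = 0.580 from limma). An exact permutation test of this gene gave p = 0.1 (two-sided), the smallest that 3 lines against 3 allow.

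*Notch2* (chromosome 3, 98013527 to 98150361, GRCm38), the receptor of bile duct formation, was at 191, 224 and 202 RPKM with sg*Trp53* and 84.2, 174 and 162 RPKM with sg*Kmt2c*, on the listed length. The groups again did not overlap, and sg*Kmt2c* replicate 1 was the lowest by far. The means were 206 ± 17.0 and 140 ± 48.8 RPKM (SD, n = 3 each), with a log2 fold change of -0.62 (95% confidence interval -1.34 to 0.10, standard error 0.302, adjusted p = 0.619 from limma). Without sg*Kmt2c* replicate 1 the log2 fold change was -0.29. *Notch1* had a log2 fold change of 0.77 without that line, and between 0.49 and 0.92 whichever line was left out.

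The sequence just upstream of a start site is given for these receptors because their lines separated in opposite directions. The windows are the 250 bases before the RefSeq start in GRCm38.p6, 5′ to 3′ on the strand of the gene, with the GC box letters GGGCGG in capitals on either strand. *Notch1* lies on the minus strand at chr2:26503823-26504072 and *Notch2* on the plus strand at chr3:98013288-98013537.

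Notch1: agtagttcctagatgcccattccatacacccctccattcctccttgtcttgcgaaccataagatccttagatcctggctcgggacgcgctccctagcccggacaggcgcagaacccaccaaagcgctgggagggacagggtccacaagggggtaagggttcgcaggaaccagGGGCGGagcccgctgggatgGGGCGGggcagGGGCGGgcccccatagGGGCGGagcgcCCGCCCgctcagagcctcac

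Notch2: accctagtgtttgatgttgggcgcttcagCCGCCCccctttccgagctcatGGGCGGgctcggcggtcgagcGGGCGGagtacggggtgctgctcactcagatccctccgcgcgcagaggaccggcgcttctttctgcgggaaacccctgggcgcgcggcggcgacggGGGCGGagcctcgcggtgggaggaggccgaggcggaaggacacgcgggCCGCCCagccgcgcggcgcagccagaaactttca

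Both windows held 5 GC boxes, which 32.74% of the 32851 promoters of that table hold at least once. The *Notch1* window was 66.0% GC with 16 CpG dinucleotides, and that of *Notch2* was 72.0% GC with 34, beside medians of 52.4% and 6 over all promoters. In *Notch1* all 5 boxes lay between 78 and 15 bases before the start, while in *Notch2* they were spread from 221 to 29 bases before it. The letters TGGGAA, the core bound by RBPJ, were on neither strand of either window, and 21.59% of all promoters hold them. The *Notch1* window lies inside the gene interval that the expression table lists, whose outer start is further upstream. No measurement of binding or chromatin at these windows was analysed here, and the matches describe only the letters.

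*Notch2* took most of the receptor RNA in every line, but less in the sg*Kmt2c* lines. On the GENCODE M1 lengths its share of the summed RPKM of the 4 receptors was 82.7%, 83.9% and 86.9% with sg*Trp53* and 59.1%, 65.8% and 77.2% with sg*Kmt2c*. *Notch1* took nearly all of the rest, with 16.8%, 15.1% and 11.9% against 40.5%, 33.2% and 21.8%. The genotypes did not overlap in either share, which restates the separation of *Notch1* and *Notch2* in opposite directions. sg*Kmt2c* replicate 1 was the most even. On the listed lengths *Notch2* would hold 88.9% to 97.4%, so the shares depend on the length while their order over the lines does not. The ratio of *Notch2* to *Notch1* within each line, a measure chosen after the values were seen, is free of library size. It was 4.94, 5.57 and 7.30 with sg*Trp53* and 1.46, 1.98 and 3.54 with sg*Kmt2c* on the GENCODE M1 lengths. All sg*Trp53* lines were above all sg*Kmt2c* lines, 2.70-fold on average, and the difference in the log2 ratio, sg*Kmt2c* minus sg*Trp53*, was -1.43. No test is given, since 2 genes already seen to separate in opposite directions fix this separation. Without sg*Kmt2c* replicate 1 the difference was -1.15, and the fold ranged from 2.21 to 3.45 when each line was left out in turn.

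**Figure D3:**
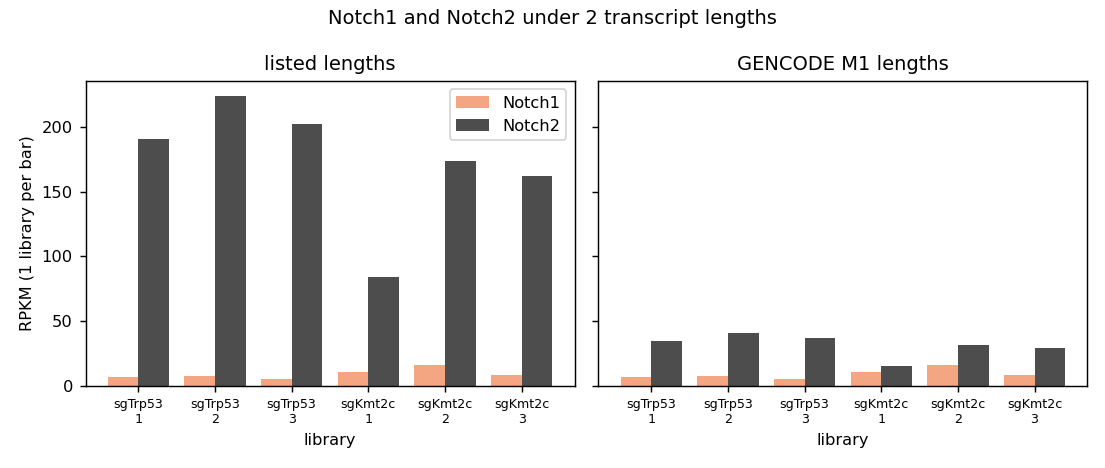
RPKM of *Notch1* and *Notch2* in each of the 6 libraries, with the transcript lengths listed in the table (left) and the longest GENCODE M1 transcripts (right), 1 bar per library and gene and no error bars. *Notch2* exceeds *Notch1* in every library on both scales, by the least in sg*Kmt2c* replicate 1 (1.46-fold on the right).

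*Notch3* and *Notch4*, receptors known from smooth muscle and endothelium, were near the detection limit. *Notch3* had 4, 12 and 26 reads with sg*Trp53* (0.0815, 0.280 and 0.469 RPKM) and 0, 9 and 7 reads with sg*Kmt2c* (0, 0.303 and 0.204 RPKM). The library without a read was sg*Kmt2c* replicate 1, where a count of 0 allows up to 0.0791 RPKM (3 reads), and the groups overlapped (exact permutation p = 0.5, two-sided). The sum of the mural cell markers, whose cells are a known site of *Notch3*, was also lowest in that line. It was lower in every sg*Kmt2c* line than in any sg*Trp53* line. Of these markers *Rgs5*, *Myh11* and *Des* reached at most 0.530, 0.941 and 2.06 RPKM in any line. Whether the lines held mural cells was not tested, nor was the part of the markers in the *Notch3* values. *Notch4* had 5, 7 and 2 reads against 3, 4 and 5 (0.124, 0.200 and 0.0440 against 0.0966, 0.165 and 0.177 RPKM). Its groups overlapped (exact permutation p = 0.7, two-sided), and a difference was not detectable at this depth.

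The ligand RNA was mostly *Jag2*, except in 1 line. *Jag2* (chromosome 12, 112908590 to 112929495, GRCm38), a ligand known from limb and thymus development, was at 70.8, 31.1 and 57.2 RPKM with sg*Trp53* and 43.0, 86.1 and 92.6 RPKM with sg*Kmt2c*. The groups overlapped through sg*Kmt2c* replicate 1, which lay between the sg*Trp53* lines, while the other sg*Kmt2c* lines were the highest of all. The means were 53.03 ± 20.2 and 73.9 ± 27.0 RPKM (SD, n = 3 each), and the log2 fold change of 0.47 did not pass (95% confidence interval -0.51 to 1.46, standard error 0.411, adjusted p = 0.743 from limma). It came to 0.82 without sg*Kmt2c* replicate 1 and 0.14 without sg*Trp53* replicate 2.

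*Jag1* (chromosome 2, 137081456 to 137116644, GRCm38), the ligand of bile duct formation, had the widest range of the tested members on the scale log2(RPKM + 1), while in the ratio of highest to lowest line *Hey1*, at very low levels, exceeded it. It was at 6.55, 3.99 and 21.6 RPKM with sg*Trp53* and 105.5, 6.24 and 4.84 RPKM with sg*Kmt2c*, from 224, 119, 834, 2790, 129 and 116 reads. sg*Kmt2c* replicate 1 was 4.89 times the next highest line, sg*Trp53* replicate 3, and 16.9 times the median of the other 5. The remaining sg*Kmt2c* lines, with a mean of 5.54 RPKM, lay within the range of the sg*Trp53* lines. The means of 10.7 ± 9.50 and 38.9 ± 57.7 RPKM (SD, n = 3 each) gave a log2 fold change of 0.80 that did not pass (95% confidence interval -2.01 to 3.61, standard error 1.18, adjusted p = 0.837 from limma). Without sg*Kmt2c* replicate 1 it was -0.54, in the opposite direction. The range of *Jag1* over the 6 lines was 4.42 on the scale log2(RPKM + 1), above that of 96.8% of all genes tested, whose median range was 1.06.

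The genes whose log2(RPKM + 1) followed *Jag1* most closely over the 6 lines were *F11r*, which encodes a tight junction protein (Pearson's r = 0.995), *Acot9*, a mitochondrial acyl-CoA thioesterase (0.992), and *Spry2*, an inhibitor of receptor tyrosine kinase signaling (0.991). They share the libraries and their depth with *Jag1*, and 65 genes in all had an r above 0.95 over these 6 lines. *F11r* was at 22.6, 20.9 and 34.4 RPKM with sg*Trp53* and 67.0, 24.0 and 20.3 RPKM with sg*Kmt2c*. *Spry2* was at 4.48, 3.25 and 7.52 RPKM against 20.5, 5.07 and 3.93 RPKM. Both were highest in the line with the most *Jag1*, and next highest in sg*Trp53* replicate 3, as *Jag1* was. That order is no separate result, since they were picked for following *Jag1*.

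The ligand shares set sg*Kmt2c* replicate 1 apart from the other lines of both genotypes. *Jag2* made up 91.4%, 87.1% and 72.6% of the summed RPKM of the 3 ligands with sg*Trp53*, and 28.9%, 93.2% and 94.9% with sg*Kmt2c*. *Jag1* was 70.9% in sg*Kmt2c* replicate 1 and 4.96% to 27.4% elsewhere. The biliary sums ranked the lines nearly as *Jag1* did, from sg*Kmt2c* replicate 1 through sg*Trp53* replicates 3 (1121 RPKM) and 1 (1031 RPKM) to sg*Trp53* replicate 2 (111 RPKM). Only sg*Kmt2c* replicates 2 and 3 changed places, with biliary sums of 116 and 471 RPKM. The part of these markers in the *Jag1* levels was not tested. The upstream windows of these ligands, shown because they differ in the GC box, are on the minus strand at chr2:137116521-137116770 for *Jag1* and at chr12:112929496-112929745 for *Jag2*, cut and marked in the same way as those of the receptors.

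Jag1: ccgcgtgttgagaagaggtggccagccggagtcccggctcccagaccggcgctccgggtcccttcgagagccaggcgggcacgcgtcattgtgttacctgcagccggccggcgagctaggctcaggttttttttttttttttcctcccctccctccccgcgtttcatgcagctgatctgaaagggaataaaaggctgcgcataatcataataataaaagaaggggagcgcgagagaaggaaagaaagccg

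Jag2: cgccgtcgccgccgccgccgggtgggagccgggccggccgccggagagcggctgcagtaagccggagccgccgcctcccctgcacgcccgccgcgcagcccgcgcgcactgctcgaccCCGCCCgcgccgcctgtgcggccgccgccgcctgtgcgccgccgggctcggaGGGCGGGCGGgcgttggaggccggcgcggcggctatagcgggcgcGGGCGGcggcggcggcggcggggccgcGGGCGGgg

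The *Jag1* window held no GC box and was 57.2% GC with 20 CpG dinucleotides. That of *Jag2* was 87.2% GC with 54 CpG dinucleotides and 5 GC boxes, of which a pair overlaps. Neither held TGGGAA or the E-box letters CACGTG (6.02% of all promoters), and the same was true of all 8 windows found for 7 of the 10 members. The *Jag1* window overlaps the end of the interval the expression table lists for the gene, so its RefSeq start is not the table's outermost start.

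*Dll1*, a Delta-family ligand of somite and neural development, had 2, 12 and 2 reads with sg*Trp53* and 4, 1 and 2 with sg*Kmt2c* (0.0916, 0.630 and 0.0811 against 0.237, 0.0757 and 0.131 RPKM). sg*Trp53* replicate 2 was the highest, and the groups overlapped (exact permutation p = 0.8, two-sided). Most values rest on a handful of reads and show no more than that the RNA was scarce in all lines.

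The target genes gave different patterns. *Hes1* (chromosome 16, 30064384 to 30067796, GRCm38) encodes a basic helix-loop-helix repressor that is induced by Notch in many tissues and also by other signals. It was at 16.5, 8.83 and 32.7 RPKM with sg*Trp53* and 39.2, 25.1 and 31.1 RPKM with sg*Kmt2c*. The groups overlapped through sg*Trp53* replicate 3, and sg*Kmt2c* replicate 1 was the highest. The 95% Poisson intervals of these lines overlapped, 29.3 to 36.5 RPKM in the former and 34.7 to 44.1 RPKM in the latter. The means were 19.4 ± 12.2 and 31.8 ± 7.05 RPKM (SD, n = 3 each), with a log2 fold change of 0.84 that did not pass (95% confidence interval -0.24 to 1.93, standard error 0.454, adjusted p = 0.639 from limma). Leaving out sg*Trp53* replicate 2 gave 0.41, leaving out replicate 3 gave 1.30, and leaving out sg*Kmt2c* replicate 1 gave 0.69.

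*Hey1* (chromosome 3, 8663359 to 8667256, GRCm38), a related repressor best known from heart and vessel development, was at 0.271, 2.95 and 2.40 RPKM with sg*Trp53* and 0.0876, 5.71 and 3.77 RPKM with sg*Kmt2c*. A single line of each genotype was low, replicate 1 in both, with 4 reads and 1 read against 38 to 51 in the other lines. The highest line was 65.2 times the lowest, a ratio with wide counting error since the lowest rests on 1 read. The means were 1.87 ± 1.41 and 3.19 ± 2.86 RPKM (SD, n = 3 each), and the log2 fold change of 0.34 did not pass (95% confidence interval -1.52 to 2.21, standard error 0.780, adjusted p = 0.898 from limma). It was 1.14 without sg*Kmt2c* replicate 1, and its sign turned when sg*Trp53* replicate 1 (-0.17) or sg*Kmt2c* replicate 2 (-0.18) was left out. *Hes1* and *Hey1* did not rank the lines alike: sg*Kmt2c* replicate 1 had the most *Hes1* and the least *Hey1*, with a ratio of 407 on the GENCODE M1 lengths, against 2.73 to 55.5 in the other lines.

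*Heyl*, the third HEY repressor, had 16, 0 and 7 reads with sg*Trp53* (0.578, 0 and 0.224 RPKM) and none in the sg*Kmt2c* lines. Counts of 0 allow up to 0.140, 0.179 and 0.155 RPKM there (3 reads per library). With 3 reads over the whole group in place of the counts of 0, pooled *Heyl* was 5.31-fold lower in the sg*Kmt2c* lines. This figure takes the 23 sg*Trp53* reads as exact and leaves out variation between lines, so it is no lower bound on a genotype difference. It rests on sg*Trp53* replicate 1 and was 2.42-fold without that line. The groups overlapped all the same, because sg*Trp53* replicate 2 had no read either (exact permutation p = 0.4, two-sided). The mural sums were lower in the sg*Kmt2c* lines too, but they did not rank the sg*Trp53* lines as *Heyl* did. Replicate 1, with the most *Heyl*, had the lowest mural sum of that genotype (40.8 RPKM). Replicate 2, without a *Heyl* read, had a mural sum of 83.5 RPKM. The part of these markers in the *Heyl* values was not tested.

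The rest of the pathway was read from 52 further genes, of which 50 were in the table and 40 could be tested. None passed at an adjusted p-value under 0.05 by limma, nor by limma voom. Log2 fold changes were above 0 in 23 genes and below 0 in 17, with a median of 0.07. Over all 11617 genes tested they were above 0 in 4878 and below 0 in 6739, with a median of -0.09. At an unadjusted p-value under 0.05 there were 2 higher and 2 lower, 10.0% beside 8.58% of all genes, and the genotypes did not overlap in 5 of 40, 12.5% beside 16.2%. Without sg*Kmt2c* replicate 1 the counts were 3 higher and 1 lower. *Furin*, the convertase that cleaves Notch on its way to the cell surface, was at 23.2, 23.5 and 26.2 RPKM with sg*Trp53* and 37.0, 33.4 and 49.6 RPKM with sg*Kmt2c* (log2 fold change 0.68, adjusted p = 0.474 from limma). *Hes6*, a HES gene that antagonizes HES1, was at 11.02, 7.26 and 21.0 RPKM against 27.0, 26.2 and 30.8 RPKM (log2 fold change 1.16, adjusted p = 0.481 from limma). Both were higher in every sg*Kmt2c* line than in any sg*Trp53* line. *Fbxw7*, the ubiquitin ligase subunit that marks the intracellular domain for degradation, was at 7.44, 10.5 and 8.05 RPKM against 6.07, 4.79 and 4.92 RPKM, with every sg*Kmt2c* line lower (log2 fold change -0.62, adjusted p = 0.567 from limma). *Rbpj* was at 11.5, 22.9 and 19.6 RPKM against 7.67, 8.8004 and 11.9 RPKM (log2 fold change -0.83, adjusted p = 0.557 from limma), and its groups overlapped by a narrow margin through sg*Kmt2c* replicate 3 and sg*Trp53* replicate 1.

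By step of the pathway, the 9 tested genes of receptor cleavage were 6 higher and 3 lower in log2 fold change (median 0.23), and the 10 of the nuclear complex and its corepressors were 3 higher and 7 lower (median -0.13). *Adam10*, which makes the ligand-dependent cut, was the highest of its list at 43.9, 61.0 and 49.5 RPKM against 50.2, 134 and 56.3 RPKM, and *Aph1c*, a γ-secretase subunit, was the lowest at 0.0521 to 0.788 RPKM. The 6 genes of ligand endocytosis were 5 higher and 1 lower (median 0.20), from *Epn1* at 43.1 to 63.0 RPKM down to *Neurl1a* at 0.181 to 5.55 RPKM. The 4 tested genes of receptor glycosylation were 3 higher and 1 lower (median 0.18), with *Lfng* listed highest at 25.5 to 86.3 RPKM and the lowest *Mfng*, with 6 reads in the sg*Trp53* lines and 0 in the sg*Kmt2c* lines. The 8 tested genes of receptor turnover were 4 higher and 4 lower (median 0.00), from *Itch* at 71.1 to 130 RPKM down to *Dtx1* with 3 reads in all. In the nuclear list *Kat2b* was listed highest at 106 to 182 RPKM and *Maml2* lowest at 0.0848 to 1.802 RPKM. Of all 11617 genes tested, 4878 were higher and 6739 lower, and no gene of these lists passed the test. Levels are on the listed lengths here, which for *Lfng*, *Itch* and *Kat2b* and 6 others of the 50 are under 50% of the GENCODE M1 length. On the GENCODE M1 lengths *Poglut1* (mean of 21.0 RPKM over the 6 lines) and not *Lfng* (14.0 RPKM) was the highest gene of glycosylation, *Snw1* (39.4 RPKM) and not *Kat2b* (10.6 RPKM) that of the nuclear list, and the other lists kept their highest and lowest genes.

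**Figure D4:**
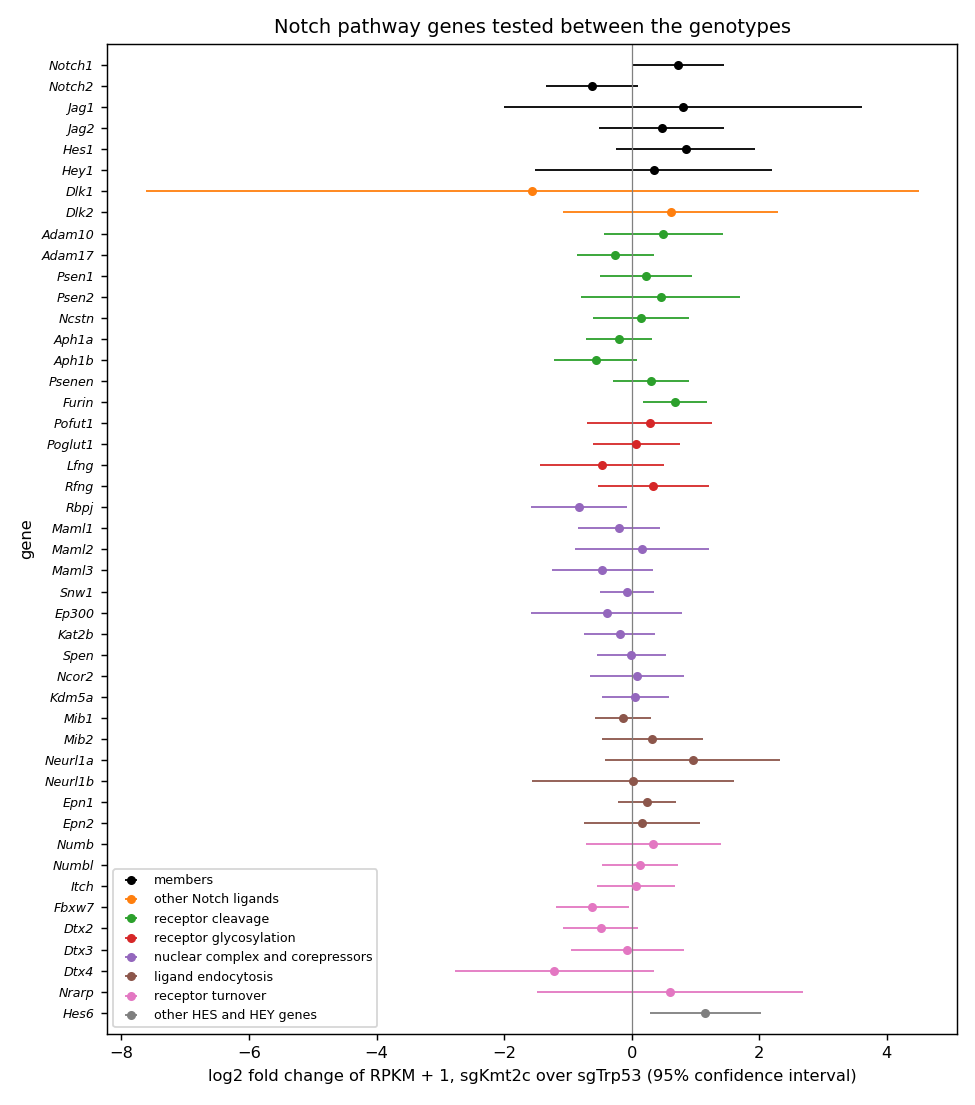
Log2 fold change (sg*Kmt2c* over sg*Trp53*, on the scale log2(RPKM + 1)) with its 95% confidence interval from limma for the 6 tested members (black) and the 40 tested genes of 7 further pathway lists (colors), n = 3 lines per genotype. Most intervals span 0, and those of *Notch1*, *Furin*, *Rbpj*, *Fbxw7* and *Hes6* do not before adjustment. The widest is that of *Dlk1*.

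*Dlk1*, a noncanonical ligand that lacks the domain for receptor activation, was the most variable of the remaining ligands, at 487, 17.4 and 228 RPKM with sg*Trp53* and 0, 73.9 and 1077 RPKM with sg*Kmt2c* on a listed length of 668 bases (log2 fold change -1.56, adjusted p = 0.853 from limma). It had no read in sg*Kmt2c* replicate 1, the line with the most *Jag1*. *Dll3* had no read in any line. *Dll4*, the endothelial Delta ligand, had 4, 0 and 14 reads with sg*Trp53* and none in the sg*Kmt2c* lines, so its groups overlapped through sg*Trp53* replicate 2. Of the further HES and HEY genes only *Hes6* was tested, and *Hes2* was the lowest with 1 read in all.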

How the data were processed

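The authors trimmed reads with Trimmomatic, used STAR for alignment to GRCm38 and HTSeq for counting, and deposited RPKM values, called FPKM in the paper's methods. Versions of these tools and the use of strand are not given in the sources used here. Of 21065 rows, 209 hold no values. Another 6 sample columns were not used. A further deposited table holds the authors' DESeq2 1.8.2 comparison (mean signal, log2 fold changes, a test score and p-values) and was not used.

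RPKM times listed length gave whole reads (tolerance 0.01) for 100% of values. limma 3.58.1 in R 4.3.3 (lmFit, eBayes with trend) was run on log2(RPKM + 1) for the 11617 genes that had 1 RPKM or more in 3 or more of the 6 libraries, with no term besides genotype and with adjustment after Benjamini and Hochberg. The pseudocount of 1 understates changes of low genes. Intervals and limits from reads cover counting error only. All libraries shared a flow cell and its 2 lanes. Replicates differed beyond sampling noise. Exact permutation tests used mean log2(RPKM + 1).

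Members, lists and tests were chosen with earlier results of these data known. Named were all members, and other pathway genes with p under 0.05, the highest or lowest mean of their list, or *Rbpj*, plus the 3 genes most like the most variable member. Promoters came from RefSeq (GRCm38.p6, 7 of 10 members matched) and lengths from GENCODE M1 (16705 genes, of which 9.57% have a listed length under 50% of it). Alternatives changed pseudocount, filter, scaling, moderation, test, block, lines and lengths. The test was also run on simulated reads with log2 fold changes of 3 in either direction in 200 genes and a preset spread between lines. Those changes exceed all those fitted for the members, so that run does not show the power at their size. Plots were drawn with matplotlib 3.10.9.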

Additional observations from a re-analysis of the deposited data

How the results depend on the processing

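With 3 lines per genotype and a spread as wide as that of *Jag1* or *Hey1*, the intervals above include sizeable changes in either direction. Over 17 alternatives no member and no other pathway gene passed an adjusted p-value under 0.05 (limma). The lowest adjusted p-value of a member was 0.335 (limma), for *Notch1* without sg*Kmt2c* replicate 3. With the replicate block, with sg*Kmt2c* replicates 2 and 3 merged, and in 5 of the 6 fits that left out a line, 0 of all genes passed. A count of 0 members in those fits therefore says nothing particular to the pathway. *Notch1*, *Notch2*, *Jag2* and *Hes1* kept their sign in all 17. *Jag1* turned to -0.54 without sg*Kmt2c* replicate 1. *Hey1* turned to -0.17 without sg*Trp53* replicate 1, to -0.18 without sg*Kmt2c* replicate 2 and to -0.0532 with sg*Kmt2c* replicates 2 and 3 counted as 1 sample; the cause was not tested. Leaving out each line in turn gave log2 fold changes of 0.49 to 0.92 for *Notch1*, -0.81 to -0.29 for *Notch2*, -0.54 to 1.55 for *Jag1*, 0.14 to 0.82 for *Jag2*, 0.41 to 1.30 for *Hes1* and -0.18 to 1.14 for *Hey1*. The unadjusted p-value of *Notch1* was 0.0514 on TPM and 0.0608 when low genes were kept. Without sg*Trp53* replicate 1 or 2, or without sg*Kmt2c* replicate 1 or 2, 0 members were higher at an unadjusted p-value under 0.05, with 1 lower, *Notch2*, in the last case. GENCODE M1 lengths for the members, an alternative chosen after the data were seen, changed no call.

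The replicate block left the log2 fold change of *Notch1* at 0.72 (adjusted p = 0.501 from limma) and called 0 members and 0 of all genes, beside 15 without it. The labels link the lines of the genotypes by a number only. Deviations of same-numbered lines correlated with r = 0.192, 0.399 and 0.0316, and those of lines with different numbers with r from -0.284 to 0.152. sg*Trp53* replicates 1 and 2 correlated best with their same-numbered lines, while sg*Trp53* replicate 3 correlated best with sg*Kmt2c* replicate 1 (0.152).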

Other observations

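*Nrarp*, a small inhibitor of Notch signaling that is itself a Notch target, was singled out after its values were seen. It was at 1.08, 0.946 and 1.91 RPKM with sg*Trp53* and 12.7, 0.105 and 1.72 RPKM with sg*Kmt2c*, from 17, 13, 34, 154, 1 and 19 reads. sg*Kmt2c* replicate 1, the line with the most *Jag1* and by a narrow margin *Hes1*, also had the most *Nrarp*, and it had the least *Notch2* and *Hey1*. That line was the highest in 23.6% and the lowest in 35.9% of all genes tested. The groups overlapped in *Nrarp*, and its log2 fold change of 0.60 did not pass (adjusted p = 0.834 from limma).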
